A study of Homo sapiens with 6 samples.

Results

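The genes described here are the 47 cytosolic translation factors, the proteins that start, extend and end the synthesis of a polypeptide on the ribosome. They were chosen by name from a list of gene symbols, matched through their Ensembl identifiers, and all 47 were found among the 23406 features measured and among the 14071 that had enough counts to be tested. Messenger RNA was sequenced from Hep-3B, a line of human hepatocellular carcinoma cells, in 2 groups of 3 libraries. The shControl cells (genotype label WT) carried a control shRNA and the shNXN cells (genotype label NXN knockdown) an shRNA against NXN, which encodes nucleoredoxin, a redox-active protein of the thioredoxin family. In both groups the shRNA was brought in by lentivirus, the cells were selected with puromycin, and RNA was taken on days 7, 9 and 11, so that each day gave 1 library per group. The labels do not say which shRNA sequence was used or whether the 3 days come from separate cultures, and they leave unclear whether the days count from transduction or from the end of selection.

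Translation starts when eIF2, loaded with GTP and the initiator tRNA, joins the small ribosomal subunit together with eIF1, eIF1A, eIF5 and the large eIF3 complex. The eIF4F proteins (the cap-binding protein eIF4E, the helicase eIF4A and the scaffold eIF4G) bring this assembly to the capped 5′ end of an mRNA, and eIF5B then joins the large subunit. The factors eEF1A and eEF2 carry elongation, and eRF1 with eRF3 release the finished chain. Many genes of this machinery start transcription at a C followed by a run of pyrimidines, the 5′ terminal oligopyrimidine (5′ TOP) motif, through which growth signalling controls how well their mRNAs are translated.

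The annotated starts of some members are printed because they show which factors have such a start. Each sequence runs from 10 bases before the start to 20 bases from it, 5′ to 3′ on the gene's own strand in build GRCh38.p14 (RefSeq), with the C at the start and the pyrimidines that follow it in capitals. The first 7 genes begin with C and at least 4 more pyrimidines, and the other 3 do not.
EEF1A1, chr6:73521013-73521042, minus strand: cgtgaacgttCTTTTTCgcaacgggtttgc
EEF2, chr19:3985444-3985473, minus strand: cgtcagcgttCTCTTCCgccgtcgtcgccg
EIF3F, chr11:7987327-7987356, plus strand: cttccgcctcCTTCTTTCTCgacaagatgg
EIF4B, chr12:53006446-53006475, plus strand: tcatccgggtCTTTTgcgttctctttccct
EIF3K, chr19:38619178-38619207, plus strand: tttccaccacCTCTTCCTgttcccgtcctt
EIF3M, chr11:32583821-32583850, plus strand: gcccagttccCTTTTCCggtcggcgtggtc
EIF4A2, chr3:186783567-186783596, plus strand: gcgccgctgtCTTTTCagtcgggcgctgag
EIF3J, chr15:44537137-44537166, plus strand: ccgccgtgctaactcctcgctagctctccc
EIF4E, chr4:98929114-98929143, minus strand: tggagcggttgtgcgatcagatcgatctaa
EEF1E1, chr6:8102529-8102558, minus strand: tgcaggtctcgcgtctgccaggagctacgg

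A start sequence was given for 39 of the 47 members, and 10 of these 39 genes (25.6%) had a start of this kind, against 5.14% of the 27305 genes in the same table. The search was on the gene's strand at the annotated start base only. The 10 were EEF1A1, EEF1B2, EEF2, EIF2S3, EIF3D, EIF3F, EIF3K, EIF3M, EIF4A2 and EIF4B. A matching start is a description of the sequence, and the transcripts made in Hep-3B cells may start elsewhere.

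The libraries held between 15349382 and 16332589 counts. NXN itself was at 181, 138 and 143 CPM (counts scaled to a common effective library size) in shControl cells on days 7, 9 and 11 and at 42.7, 47.5 and 39.5 CPM in shNXN cells. Its log2 fold change was -1.83 (SE, the standard error, 0.16, adjusted p = 0.0378 by edgeR's quasi-likelihood test). All 10 hepatocyte genes looked at were detected, with a summed level of 13174 to 23939 CPM in shControl and 6779 to 15423 CPM in shNXN libraries. They did not move together. ALB, the largest part of the sum, was at 9566, 13655 and 6955 CPM against 1420, 683 and 7250 CPM, SERPINA1 was at 1226 to 1387 against 1541 to 2073 CPM, and HNF4A, at 302, 391 and 219 against 396, 533 and 312 CPM, was the 1 gene of the list called with the day as a block (higher, adjusted p = 0.0317 by edgeR). Of the fibroblast, leukocyte and endothelial markers, PTPRC, CD3E, COL3A1, DCN, VWF, CDH5 and KDR were at 0 to 0.185 CPM in every library, and COL1A2 and LUM at no more than 0.730 and 0.738 CPM. The others were detected, LYZ at 95.2 to 157 CPM in shControl and 150 to 281 CPM in shNXN cells, CD14 at 1.72 to 4.86 against 4.06 to 8.76 CPM, PDGFRB at 2.40 to 4.79 against 3.43 to 6.45 CPM and COL1A1 at 1.31 to 2.21 against 2.06 to 2.64 CPM, with LYZ, CD14 and PDGFRB higher in shNXN cells on each day. The part of these levels in the results below was not tested.

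Translation factor mRNAs were abundant. Together they took between 2.66% and 3.27% of all counts in a library. On the FPKM scale, which divides by transcript length and so allows levels to be compared between genes, the median of the 47 members in shControl cells was 163, against 13.6 over all features tested. The highest mean was 536 times the lowest. EEF1A1, whose product delivers aminoacyl-tRNA to the ribosome, was first at 5050, 8825 and 5337 FPKM in shControl cells and 3870, 3736 and 5381 FPKM in shNXN cells. EEF2, the translocation factor, came next at 1622, 1817 and 1340 against 2227, 2510 and 1646 FPKM. Their shControl ranges did not overlap each other. EIF4A1 (the helicase eIF4A-I, 997 ± 142 FPKM, SD, n = 3), PABPC1 (the poly(A) tail binding protein, 965 ± 370 FPKM) and EEF1G (a subunit of the eEF1 exchange complex, 843 ± 98.2 FPKM) followed and could not be ordered by their shControl values. Of the 46 pairs of neighbours in the order of shControl means, 40 overlapped. The lowest were EIF2B3 (12.0 ± 2.93 FPKM), a subunit of the eIF2B exchange factor, and EEF2K (13.8 ± 3.02 FPKM), the kinase that inactivates eEF2. Reads of genes with near-identical copies, such as EIF3C or the many processed copies of EEF1A1, can be shared out between them, so those levels are less certain.

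In the comparison of shNXN with shControl, 0 of the 47 members passed an adjusted p of 0.05 in the fit without the day, where 3.39% of all features did. At an unadjusted p under 0.05 there were 20 members, 12 of them lower, against 32.9% of all features. DESeq2 called 11 members (23.5% of all features), 9 lower (16.8% of all features) and 2 higher (6.74%). The days are shared by the groups, and with the day entered as a block edgeR called 14 of 47 members (29.8%), against 23.3% of all features. Of these, 12 fell, where 17% of all features did, and 2 rose, where 6.28% did. The members that fell were EIF3J, EEF1E1, EIF4G2, EIF4A2, ETF1, EIF3M, EIF5B, EIF4E, EIF2S1, EIF5, EIF3E and GSPT1, and those that rose were EEF2 and EIF3G. The median log2 fold change was -0.11 over the members and 0.03 over all features tested without the block. In the values themselves, the groups did not overlap for 25 members, 12 lower (21.5% of all features were) and 13 higher (19%) in shNXN cells. The difference had a single sign on the 3 days in 35 members (68.4% of all features), 17 lower (32.6%) and 18 higher (35.8%). Below, "fell" and "rose" refer to the fit with the day as a block. In bulk RNA, less of an mRNA in each cell and fewer cells that hold it cannot be told apart.

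**Figure D1:**
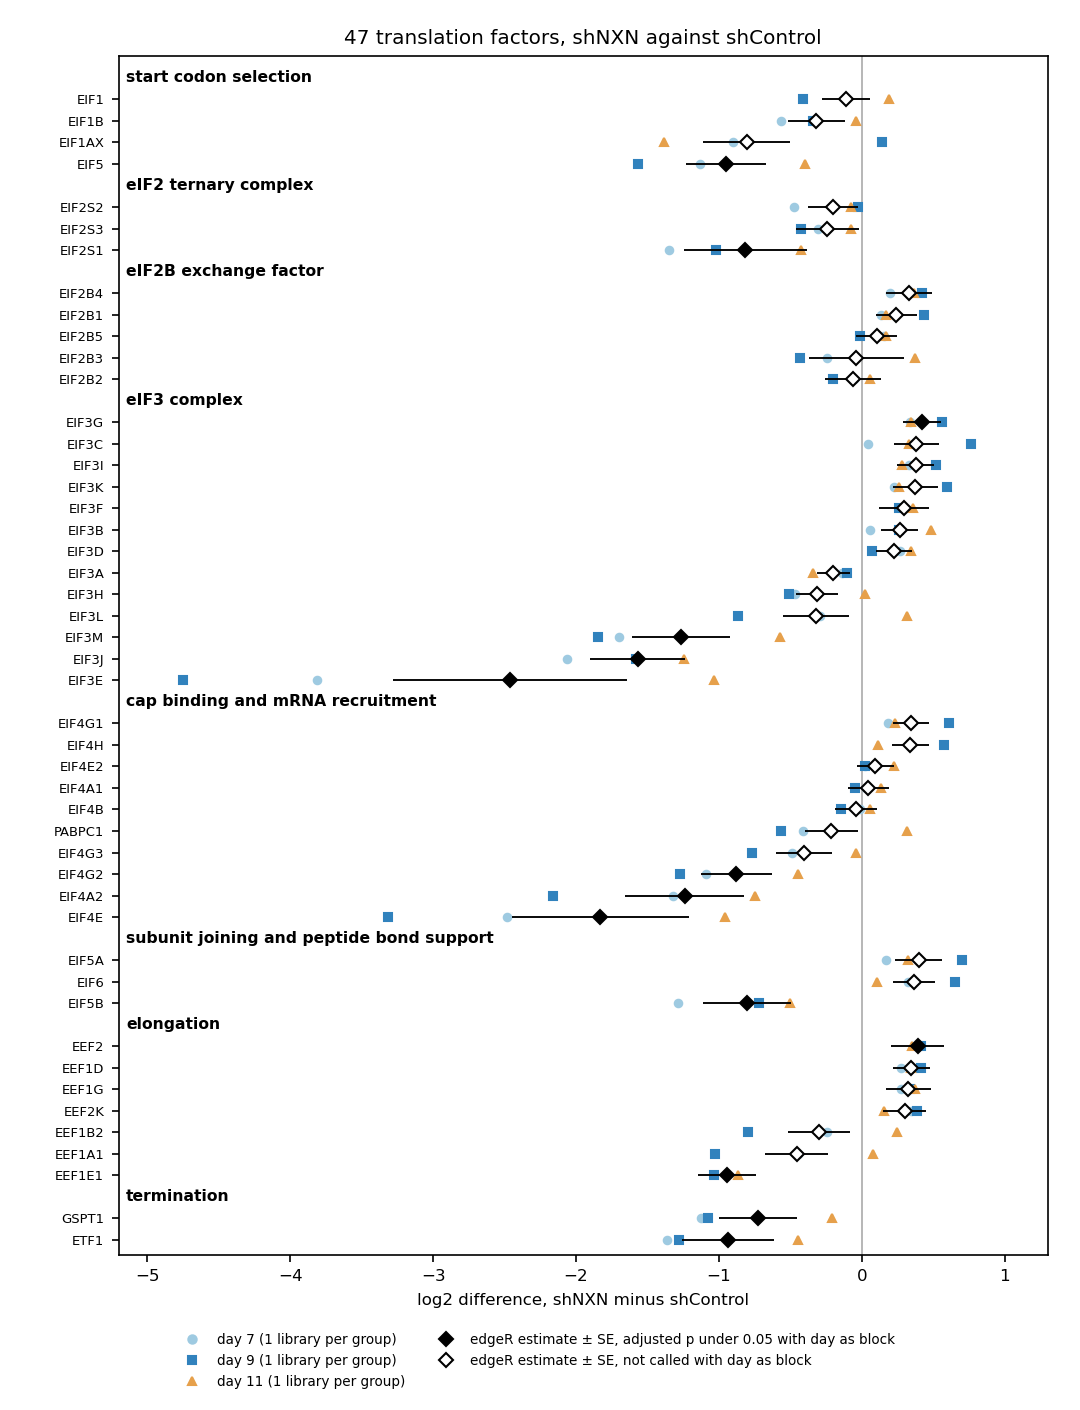
Log2 difference between shNXN and shControl cells for the 47 translation factors, grouped by role and ordered within a role. Diamonds with bars are edgeR estimates with standard errors without the block, filled for the 14 members called with the day as a block, and the small symbols are the differences within each day (1 library per group). EIF3E reached -3.81 on day 7 and -4.75 on day 9 but -1.04 on day 11, and the members that rose lay near 0.4.

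The falls were smallest on day 11. The 12 members that fell had a median log2 difference of -1.33 on day 7, -1.42 on day 9 and -0.54 on day 11, and in 12 of the 12 the difference was least negative on day 11. How often this held among all features called lower was not counted, so it is not shown to be particular to these members. Over the 47 members the medians were -0.14, -0.14 and 0.11, against 0.00074, -0.0055 and 0.07 over all features. Without the 2 day 11 libraries, an analysis added after the values were seen, edgeR called 21 members, where 31.8% of all features were called. Of these, 17 were lower, as were 23.8% of all features, and 4 higher, as were 7.99%. Without the day 11 shNXN library alone it called 15, where 25.8% of all features were, and without any other library it called 0. Each day has a single library per group, so a change with time and a property of the day 11 libraries cannot be told apart.

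The roles are described in turn, beginning with eIF3, the largest initiation complex, which holds the small subunit together with the other factors and the mRNA. Of its 13 subunit genes, EIF3E, EIF3J and EIF3M fell, EIF3G rose and 9 were not called. EIF3E was at 326, 312 and 265 CPM in shControl cells and at 23.2, 11.6 and 129 CPM in shNXN cells on days 7, 9 and 11. The groups were far apart on every day, and shNXN cells held 7.11%, 3.71% and 48.8% of the shControl level. The log2 fold change was -3.23 with the block (SE 0.80, adjusted p = 0.0435 by edgeR) and -2.46 without it (SE 0.82, adjusted p = 0.0992).

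EIF3J, a loosely held subunit that sits near the decoding site, was at 98.7, 72.9 and 116 CPM in shControl and at 23.7, 24.3 and 49.0 CPM in shNXN cells. All shNXN values lay below all shControl values, and its log2 fold change was -1.57 (SE 0.33, adjusted p = 0.0527 by edgeR), with an adjusted p of 0.0146 with the block. EIF3M was at 90.5, 115 and 101 CPM against 27.9, 31.9 and 67.7 CPM. The groups did not overlap here either, and the log2 fold change with the block was -1.37 (SE 0.28, adjusted p = 0.0305 by edgeR).

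The subunit that rose, EIF3G, binds RNA and helps in scanning. It was at 215, 215 and 199 CPM in shControl and at 271, 317 and 253 CPM in shNXN cells, a log2 fold change of 0.41 with the block (SE 0.10, adjusted p = 0.0435 by edgeR). Without the block, the log2 fold changes of the other 9 subunits lay between -0.32 for EIF3L and 0.38 for EIF3C. In 6 of the 13 subunits (EIF3B, EIF3C, EIF3D, EIF3G, EIF3I and EIF3K) every shNXN value was above every shControl value, as it was in 19% of all features, and in 4 (EIF3A, EIF3E, EIF3J and EIF3M) every one was below, as in 21.5% of all features.

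The order of the eIF3 subunits by FPKM therefore differed between groups. EIF3B, a scaffold of the complex, ranked first of 13 in all 6 libraries. EIF3E ranked 2, 4 and 5 in shControl cells and 12, 13 and 10 in shNXN cells. In FPKM it was at 266, 254 and 226 in shControl and 23.1, 10.9 and 127 in shNXN cells. EIF3K, which was not called, ranked 5, 6 and 3 in shControl and 2, 2 and 4 in shNXN cells.

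**Figure D2:**
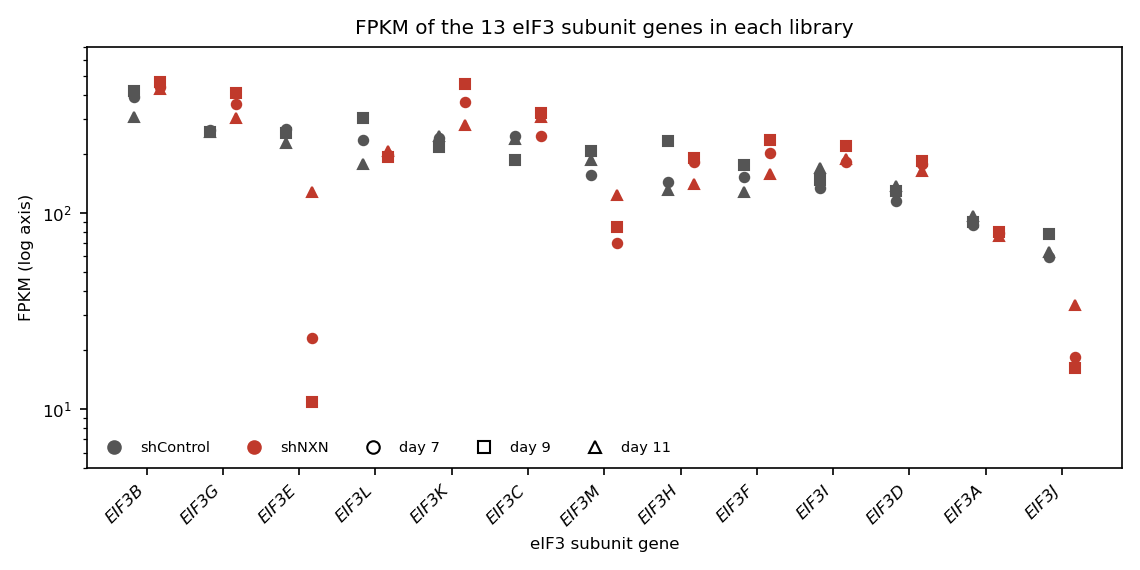
FPKM (log axis) of the 13 eIF3 subunit genes in each of the 6 libraries, ordered by the shControl mean, with shControl in grey and shNXN in red and a symbol for each day. EIF3E, EIF3M and EIF3J are the subunits whose shNXN points lie clearly under the shControl points, with day 11 nearest to them, while EIF3B stays highest in every library.

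Among the 10 genes for cap binding and mRNA recruitment, EIF4E, EIF4A2 and EIF4G2 fell and 7 were not called. EIF4E, the cap-binding protein, was at 64.7, 74.6 and 86.1 CPM in shControl and at 11.6, 7.48 and 44.4 CPM in shNXN cells. The groups did not overlap, and shNXN cells held 17.9%, 10.0% and 51.6% of the shControl level by day. Its log2 fold change was -2.23 with the block (SE 0.47, adjusted p = 0.0331 by edgeR) and -1.83 without it (SE 0.62, adjusted p = 0.103).

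EIF4A2, a helicase closely related to EIF4A1, was at 426, 464 and 592 CPM against 171, 104 and 353 CPM. All shNXN values were lower, with a log2 fold change of -1.41 with the block (SE 0.28, adjusted p = 0.029 by edgeR). EIF4G2 (DAP5), a relative of eIF4G that lacks the site for eIF4E, was at 649, 656 and 714 CPM against 305, 271 and 524 CPM and had a log2 fold change of -0.94 with the block (SE 0.18, adjusted p = 0.0281 by edgeR). The highest in this role was EIF4G1, the main eIF4G scaffold, at 778, 685 and 785 CPM against 885, 1047 and 920 CPM. Its groups did not overlap, but its log2 fold change of 0.34 had an adjusted p of 0.0872 with the block (edgeR). PABPC1 was at 1252, 1443 and 1061 CPM against 943, 975 and 1321 CPM, so that the groups overlapped.

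The pairs of related factors were compared within each library, as the log2 of the ratio of their FPKM values, which cancels any scaling of the whole library. The ratio does not cancel a difference that follows GC content, or a change in the length behind FPKM, both described below. With 3 libraries against 3, an exact permutation test cannot give a p under 0.1. The ratio of EIF4E to EIF4E2, a cap-binding relative that does not take part in eIF4F, was 0.787, 1.60 and 0.814 in shControl and 0.162, 0.0741 and 0.539 in shNXN cells. Every shNXN ratio was lower, by 2.43 on the log2 scale in the mean (two-sided exact permutation test, p = 0.1, adjusted over the 4 pairs 0.2). EIF4A1 outnumbered EIF4A2 by 3.57, 2.72 and 2.97 times in shControl and by 5.89, 9.35 and 5.45 times in shNXN cells. Every shNXN ratio was higher, by 1.13 on the log2 scale (exact permutation test, p = 0.1, adjusted 0.2). In both pairs the partner that fell had less GC in its transcript, EIF4E 38.97% against 46.89% and EIF4A2 38.65% against 49.6%. With the block and the GC trend removed, the log2 fold changes were -1.16 for EIF4E and 0.18 for EIF4E2. They were -0.31 for EIF4A2 and -0.08 for EIF4A1, and none of these genes was called (edgeR).

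The ratio of EIF4G1 to EIF4G3, a second eIF4G scaffold, differed by 0.44 on the log2 scale with overlapping groups (exact permutation test, p = 0.2, adjusted 0.267). That of EIF1 to EIF1B, its close copy, differed by 0.23 (exact permutation test, p = 0.4, adjusted 0.4). EIF1 gave between 20.8 and 33.4 times the FPKM of EIF1B over the 6 libraries. In both of these pairs the groups overlapped in FPKM. In CPM, the log2 ratio of EIF4G1 to EIF4G3 differed by 0.78 and the groups did not overlap (exact permutation test, p = 0.1, adjusted over the 4 pairs 0.133).

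Of the 4 genes for start codon selection, EIF5 fell and 3 were not called. EIF5, which triggers GTP hydrolysis by eIF2 at the start codon, was at 209, 197 and 200 CPM in shControl and at 95.2, 66.3 and 151 CPM in shNXN cells. The groups did not overlap and the log2 fold change with the block was -1.03 (SE 0.23, adjusted p = 0.0372 by edgeR). EIF1, which guards against wrong start codons, had the highest log2 fold change of this role, -0.11, with an adjusted p of 0.561 with the block. EIF1B lay lower in all 3 shNXN libraries, at 10.7 to 12.5 CPM against 12.9 to 15.9 CPM, with an adjusted p of 0.224 with the block (edgeR).

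Of the 3 subunits of eIF2, which brings the initiator tRNA, EIF2S1 fell. This is the alpha subunit, whose phosphorylation slows initiation under stress. It was at 81.2, 58.6 and 108 CPM in shControl and at 31.9, 28.9 and 80.1 CPM in shNXN cells. The groups overlapped across days, since the day 11 shNXN value exceeded the day 9 shControl value, while shNXN was lower within each day. The log2 fold change was -0.93 with the block (SE 0.20, adjusted p = 0.0343 by edgeR) and -0.81 without it (adjusted p = 0.219). EIF2S2, the beta subunit, had the highest value of the role, -0.20. Of the 5 subunits of eIF2B, which recharges eIF2 with GTP, edgeR called 0 with the block or without it (0 at an unadjusted p under 0.05 with the block and 0 without it, and 0 by DESeq2). Their log2 fold changes ran from -0.06 for EIF2B2 to 0.33 for EIF2B4.

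Subunit joining and peptide bond support held EIF5B, EIF5A and EIF6. EIF5B, the GTPase that joins the large subunit, fell, from 280, 181 and 300 CPM to 115, 110 and 212 CPM, a log2 fold change of -0.83 with the block (SE 0.17, adjusted p = 0.0319 by edgeR). Its groups overlapped across days and were apart within each day. EIF5A, which helps the ribosome through difficult peptide bonds, was at 834, 716 and 978 CPM against 939, 1163 and 1226 CPM. That difference of 0.40 on the log2 scale was not called with the block (adjusted p = 0.0746, edgeR).

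Among the 7 elongation genes EEF1E1 fell, EEF2 rose and 5 were not called. EEF1E1 (AIMP3), which despite its symbol is known as a part of the multi-tRNA synthetase complex, was at 35.3, 34.7 and 43.3 CPM in shControl and at 18.3, 16.9 and 23.7 CPM in shNXN cells. The groups did not overlap, and the difference hardly varied by day, with shNXN at 51.9%, 48.8% and 54.8% of shControl. The log2 fold change was -0.94 (SE 0.20, adjusted p = 0.0531 by edgeR) without the block and -0.95 with it (adjusted p = 0.0172). EEF2 was at 4724, 5308 and 3834 CPM against 6203, 7083 and 4891 CPM. Its groups overlapped across days, while within each day shNXN was at 131%, 133% and 128% of shControl, and the log2 fold change of 0.39 had an adjusted p of 0.0373 with the block and 0.186 without it (edgeR).

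EEF1A1 was at 8941, 12679 and 9033 CPM in shControl and at 6575, 6205 and 9553 CPM in shNXN cells. The day 9 shControl value stood above the other five, and the groups overlapped through day 11. Its log2 fold change was -0.46 with an adjusted p of 0.153 with the block (edgeR). EEF1G was at 1113, 1169 and 895 CPM against 1349, 1475 and 1159 CPM, with an adjusted p of 0.0523 with the block. Both termination genes fell: ETF1, which encodes the release factor eRF1, from 208, 169 and 219 CPM to 80.7, 69.6 and 161 CPM, and GSPT1, which encodes its partner eRF3a, from 326, 350 and 356 CPM to 150, 166 and 307 CPM. Neither pair of groups overlapped. The log2 fold changes with the block were -1.03 (SE 0.21, adjusted p = 0.0304 by edgeR) and -0.81 (SE 0.21, adjusted p = 0.0473 by edgeR).

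**Figure D3:**
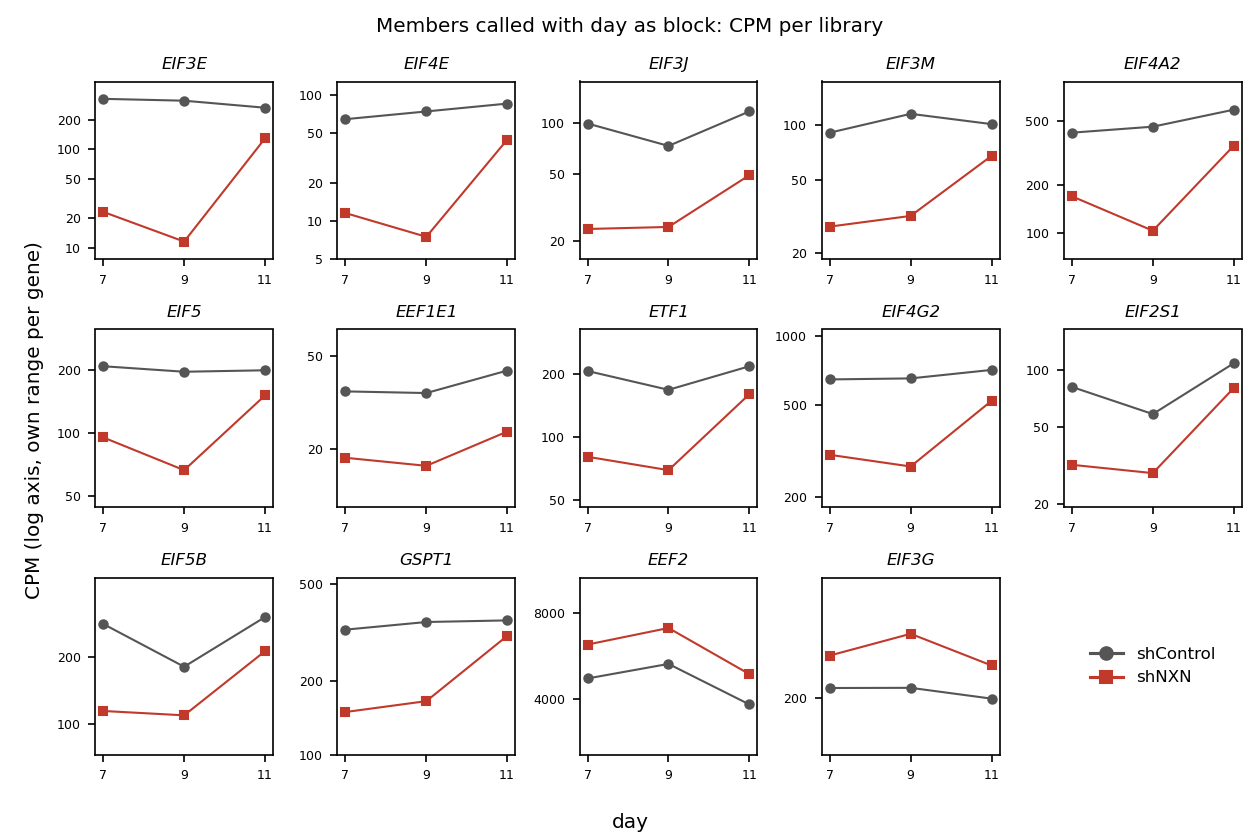
CPM per library (log axis with its own range for each gene) of the 14 translation factors called with the day as a block, for shControl (grey circles) and shNXN (red squares), with lines joining the libraries of a group. In the 12 members that fell the red line comes nearest to the grey one, as a ratio, on day 11. EEF2 stays higher in shNXN cells by a similar step on each day, and EIF3G stays higher by a step that is largest on day 9.

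The members that fell shared a low GC content, which the choice of members did not use. The longest annotated transcripts of these 12 had 36.9% to 43.5% GC, those of EEF2 and EIF3G 59.9% and 60.3%, and those of the 33 members not called 35.1% to 60.6%. Across the 47 members Spearman's rho between log2 fold change and transcript GC content was 0.86, and across the 12740 features tested that had a GC value it was 0.79. These are descriptions across genes that share their libraries, not tests over independent samples. Within the days, rho over the members was 0.84, 0.74 and 0.83. Of the 18 members under 45% GC (a value chosen after the data were seen), 12 were among those that fell and 17 had a negative log2 fold change, EIF3F being the exception. Of the 29 at or over it, 0 fell. The shares of all features on each side of this value were not counted, so the split does not set the members apart from other genes.

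With the trend over GC content taken out of each library and the day kept as a block, 1.1% of all features were called. Of the members, 0 were then called lower and 1, EIF3F, higher, against 0.633% of all features higher, and 8 were at an unadjusted p under 0.05, 4 of them lower (edgeR). The share of all features at that unadjusted p was not counted for this fit, so these 8 are not shown to be particular to the members. EIF3E was then at -2.02 (adjusted p = 0.15 by edgeR), EIF4E at -1.16 (adjusted p = 0.138), EIF3J at -0.55 (adjusted p = 0.112) and EEF1E1 at 0.33 (adjusted p = 0.254). Of the 12 members that fell, 8 kept a negative value in that fit (EIF3E, EIF4E, ETF1, EIF3J, EIF4A2, EIF5, EIF3M and EIF4G2) and 4 had a positive one (EEF1E1, EIF5B, EIF2S1 and GSPT1). The members that rose, EEF2 and EIF3G, were at 0.03 (adjusted p = 0.893 by edgeR) and 0.05 (adjusted p = 0.817) in the same fit. EIF3F, an eIF3 subunit, was at 156, 179 and 126 CPM against 190, 215 and 161 CPM and had 40.6% GC in its longest transcript but 56.5% in its coding part. With GC content taken from the coding part instead, a choice made after the values were seen, EIF3F was at 0.07 (adjusted p = 0.736 by edgeR) and 3 other members were called higher, EIF2S2, EIF1 and EIF2S3, where 2.15% of all features were called and 0.59% called higher. The correction removes every difference that follows GC content, whatever its origin.

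**Figure D4:**
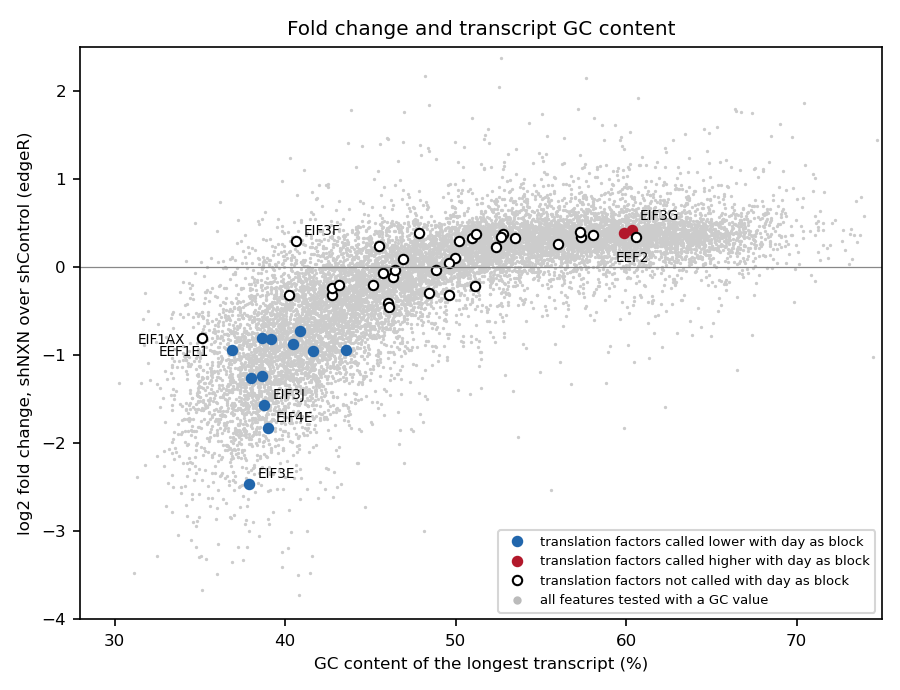
Log2 fold change (edgeR, without the block) against the GC content of the longest transcript in percent, for the translation factors (large symbols, coloured by their call with the day as a block) over all features tested that had a GC value (grey), with 11 features outside the axes. The members that fell lie between 36.9% and 43.5% GC inside the grey cloud, which bends down at low GC content. EIF3F lies above the trend of the cloud but not outside the cloud.

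Counts and FPKM came from the same libraries but did not move together for every member. The length implied by a member's count and FPKM in a library was computed from their ratio and the library's total. It was under 0.8 times the shControl length in shNXN cells for 11 of 47 members (23.4%), against 19.1% of the 11519 features with at least 1 FPKM in every library. EIF5 went from 1736 to 961 bases in the mean, EEF1E1 from 641 to 361, EIF4G2 from 2850 to 1761 and EIF4A2 from 1510 to 1055. These means hide differences between libraries of a group. On days 7, 9 and 11 EIF4G2 in shNXN cells was at 305, 271 and 524 CPM but 248, 254 and 172 FPKM. EIF5 in shControl cells was at 209, 197 and 200 CPM but 93.0, 213 and 96.9 FPKM. A difference in implied length between the groups was not tested. These are the lengths that the deposited tables imply, and no transcript isoform was measured here.

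On the log2(FPKM + 1) scale, which understates the change of low values, the differences of EIF4G2 and EEF1E1 were -0.09 and -0.09 and that of EIF5 was -0.25, none of them called by limma (adjusted p = 0.751, 0.693 and 0.603). EIF3E, EIF4E and EIF3J were at -2.90, -1.98 and -1.57 on that scale, and among the 47 members limma called EIF3J and EIF1AX, a factor for scanning and start codon choice, both lower, where 2.04% of all features were called and 1.9% called lower. EIF1AX was at 150, 76.4 and 187 CPM in shControl and at 80.3, 84.3 and 71.8 CPM in shNXN cells, and its CPM groups overlapped. The sign differed between the tables for 6 members, EIF2B2, EIF2B3, EIF3H, EIF4B, PABPC1 and EEF1B2, which were lower in counts and higher in FPKM.

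**Figure D5:**
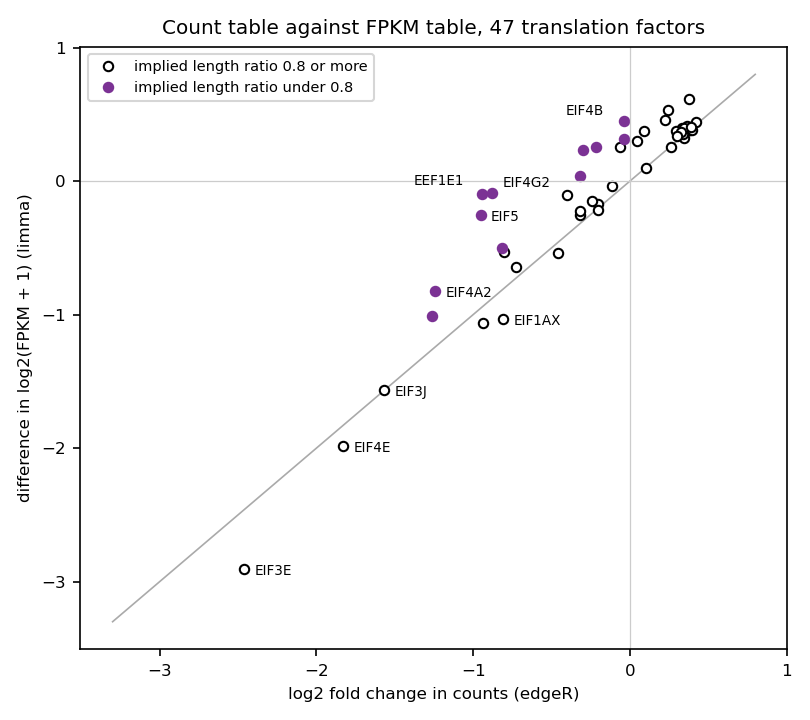
Difference in log2(FPKM + 1) (limma) against the log2 fold change in counts (edgeR, without the block) for the 47 translation factors, with the line of equal values. Filled points are the 11 members whose mean implied length in shNXN cells was under 0.8 times that in shControl cells. EIF4G2, EEF1E1 and EIF5 lie well above the line, and EIF3E, EIF4E and EIF3J near or under it.

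The genes with a 5′ TOP start are given beside the others, and a difference between them was not tested. Among the 10 with such a start, log2 fold changes ran from -1.26 (EIF3M) to 0.39 (EEF2) with a median of -0.14, and among the 29 others with a start sequence from -1.83 to 0.40 with a median of -0.04. With the block, 2 of the 10 fell (EIF3M and EIF4A2) and 1 rose (EEF2), while 9 of the 29 fell and 0 rose, against 17% lower and 6.28% higher over all features. A second list, the 10 translation factors commonly named as 5′ TOP mRNAs, had a median log2 fold change of -0.13 and 0 genes called without the block (2 at an unadjusted p under 0.05 by edgeR, and 1 by DESeq2), with EIF3E lower and EEF2 higher with it. EEF1D, an exchange subunit of eEF1, was the next of that list, at 415, 431 and 375 CPM against 501, 576 and 475 CPM (adjusted p = 0.0512 with the block, edgeR). In 9 of these 10 genes the highest shControl value was on day 9, as it was in 64.6% of the 79 cytosolic ribosomal protein genes and 36.1% of all features tested.

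The factors were set beside other genes of protein synthesis. Of 41 translation regulators tested, without the block 3 fell and 1 rose, with a median log2 fold change of -0.14, and with the block 12 fell and 2 rose. Over all features tested, 3.39% were called without the block, and with it 17% were lower and 6.28% higher. ABCE1, the ATPase that splits ribosomes after termination, was at 106, 85.1 and 143 CPM in shControl and at 11.9, 13.0 and 35.9 CPM in shNXN cells, a log2 fold change of -2.46 (SE 0.46, adjusted p = 0.0473 by edgeR). DDX3X, a helicase that helps initiation, was at 603, 536 and 656 CPM against 312, 246 and 371 CPM (log2 fold change -0.95, adjusted p = 0.0472 by edgeR). PAIP1, which binds PABPC1, was at 188, 156 and 160 CPM against 78.0, 84.5 and 106 CPM (log2 fold change -0.91, adjusted p = 0.0454 by edgeR). The groups were apart in all of these. MKNK2, a kinase of eIF4E, rose, from 218, 250 and 194 CPM to 346, 399 and 343 CPM (log2 fold change 0.72, adjusted p = 0.0492 by edgeR). With the block and the GC trend removed, ABCE1 was called, at -1.49 (adjusted p = 0.0376 by edgeR), and DDX3X was at 0.06 (adjusted p = 0.796). PAIP1, at -0.34 (adjusted p = 0.215 by edgeR), and MKNK2, at 0.34 (adjusted p = 0.129), were not called in that fit either.

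Of the 22 cytosolic aminoacyl-tRNA synthetases, which charge tRNAs, 0 were called without the block (10 at an unadjusted p under 0.05, and 9 by DESeq2), and with it 5 fell and 6 rose (17% and 6.28% of all features), with a median log2 fold change of 0.20. AARS1 was higher, at 264, 334 and 181 against 403, 523 and 275 CPM (adjusted p = 0.0184 with the block, edgeR). NARS1 was lower, at 208, 218 and 230 against 142, 151 and 182 CPM (adjusted p = 0.0342), and so was FARSB, at 50.8, 45.3 and 61.7 against 14.7, 16.2 and 43.8 CPM (adjusted p = 0.0356). With the GC trend removed as well, 0 of the 22 were called by edgeR (6 at an unadjusted p under 0.05), where 1.1% of all features were called. How many of all features were at that unadjusted p in that fit was not counted.

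The 79 cytosolic ribosomal protein genes had a median log2 fold change of 0.31. Without the block 0 were called (34 at an unadjusted p under 0.05, and 14 by DESeq2), and with it 30 rose and 0 fell. Over all features, 32.9% were at an unadjusted p under 0.05, 23.5% were called by DESeq2, and with the block 6.28% were higher and 17% lower. Among those that rose with the block were RPL28 (log2 fold change 0.51, adjusted p = 0.0242 by edgeR) and RPLP2 (0.54, adjusted p = 0.0264). With the block and the GC trend removed, 3 were called, all higher, and 33 were at an unadjusted p under 0.05 (edgeR). The share of all features at that unadjusted p was not counted there, so the 33 are not shown to be particular to these genes. In that fit 1.1% of all features were called, and 0.633% of all features were called higher. A difference between these lists and the translation factors was not tested.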

How the data were processed

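Hep-3B mRNA was profiled by RNA sequencing (SMARTer library kit) in 3 shControl and 3 shNXN libraries. The authors deposited 2 tables over the same features and libraries, of estimated counts and of FPKM. The aligner, the counter and the human build were not given in the sources used here. The submitters' notes name mouse builds, whereas the identifiers are human. Between 15.1% and 18.8% of the deposited expected counts in a library were not whole, so reads were shared among features and counts of near-identical genes are uncertain. There were 0 columns without a sample. Of 20314 Ensembl identifiers, 19433 had a symbol, and 3092 features were assembled loci.

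After rounding, edgeR 4.0.16 under R 4.3.3 was run on the expected counts (TMM, filterByExpr, quasi-likelihood test), with Benjamini-Hochberg adjustment over all 14071 features tested and a call at an adjusted p of 0.05. Standard errors are the size of the log2 fold change over the square root of F. CPM uses TMM sizes. Replicate numbers follow the days in the labels, which pairs the libraries. Deviations from the group means correlated at 0.30, 0.31 and 0.45 within days and at -0.37 to 0.15 between days. Replicates differed beyond sampling noise (chi-square per feature 21.1 to 82.9), and as separate cultures are not stated, p-values cover only the spread between these libraries. FPKM was tested with limma 3.58.1 on log2(FPKM + 1). GC content came from the longest GENCODE 29 transcript, and its trend per library (spline, 5 degrees of freedom) entered as an offset.

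The alternatives were DESeq2 1.42.0, other scalings and filters, the block, a pseudocount of 0.1, GC corrections and each library left out. The coding GC correction and the fits without day 11 were added after the data were seen. The members and lists were chosen with earlier results of these data known. Genes named with values were NXN, the 10 members with the smallest p with the block, the highest and lowest of each role, the pairs, the 5 highest in FPKM, and in the other lists the genes called and the 3 with the smallest p with the block. EIF1AX, EIF3F, EEF2K and EIF2B3 are named with values outside this rule, as noticed in the data. So are EIF3B, EIF3C, EIF3K and EIF3L among the eIF3 subunits, some cell type markers, and the members whose sign differed between days. edgeR was also run on counts simulated for this comparison (13915 features, 198 changed, no block). It recovered 94.9% of the changes of 2 and 28% of those of 1 on the log2 scale, with 2 false calls. These rates hold for the simulation alone, and whether they carry over to the measured counts was not tested. In the measured counts, calls over all features ran from 0 to 3706 with each library left out. EIF3E, at -2.46 without the block, missed the threshold there (adjusted p = 0.0992 by edgeR). Scripts ran under Python 3.11.15 with pandas 2.3.3 and scipy 1.17.1.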

Additional observations from a re-analysis of the deposited data

Results flagged for a closer look

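For 12 of the 47 translation factors the sign of the difference between shNXN and shControl cells was not the same on all days. With 1 library per group and day, these differences between days were not tested, and 68.4% of all features tested kept 1 sign on the 3 days. The odd day was day 11 in 9 of the 12 members and day 9 in 3.

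The elongation factor genes EEF1A1 and EEF1B2 had log2 differences of -0.44, -1.03 and 0.081 and of -0.24, -0.80 and 0.25 on days 7, 9 and 11. PABPC1 had -0.41, -0.57 and 0.32. The eIF3 subunits EIF3H and EIF3L had -0.47, -0.51 and 0.025 and -0.29, -0.87 and 0.32. EIF1 had -0.11, -0.41 and 0.19, and EIF4B had -0.01, -0.14 and 0.060. Of the eIF2B subunits, EIF2B2 had -0.05, -0.20 and 0.057, EIF2B3 had -0.24, -0.43 and 0.37, and EIF2B5 had 0.15, -0.0096 and 0.17. EIF4A1 had 0.03, -0.050 and 0.14, and EIF1AX had -0.90, 0.14 and -1.38. The highest shControl value was on day 7 for 7 of the 47 members, on day 9 for 19 (40.4%, against 36.1% of all features tested) and on day 11 for 21.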

How the results depend on the processing

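Over all features, 477 calls became 3311 with DESeq2, 826 under RLE scaling, 929 with library size alone, 818 with no filter, 287 with limma on log2(FPKM + 1), 66 on log2(FPKM + 0.1), 5 with the GC correction and 5 with the coding GC correction, 4519 without the day 11 libraries, and 0 to 3706 with each library left out. With the replicate block they were 3272, and 155, 302 and 5250 with the block and the GC correction, the coding GC correction and no day 11 libraries. The translation factors called went from 0 to 11 with DESeq2, to 2 under RLE scaling, library size alone, no filter, a minimum of 10 counts or limma on log2(FPKM + 1), to 21 without day 11 and to 0 to 15 with each library left out (15 without the day 11 shNXN library), and with the block to 14, 1 with GC correction, 3 with coding GC correction and 24 without day 11. Apart from limma, which called EIF1AX and EIF3J, the 2 called were EIF3J and EEF1E1, whose adjusted p of 0.0527 and 0.0531 lay just past the threshold. The members' median, -0.11, was 0.24 in both FPKM fits, 0.04 with the GC correction (0.04 with the block) and 0.12 with the coding GC correction (0.12 with the block). By day, FPKM in place of CPM gave medians of 0.24 on day 7 and 0.026 on day 9, against -0.14 and -0.14.

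Regulators called went from 4 to 14 with DESeq2, 0 on log2(FPKM + 0.1) or with either GC correction, 18 without day 11 and 0 to 14 with each library left out, and with the block to 14, 1 with GC correction and 21 without day 11. Synthetases called went from 0 to 9 with DESeq2, 1 on log2(FPKM + 1), 14 without day 11 and 0 to 11 with each library left out, and with the block to 11 and 17 without day 11. Ribosomal proteins called went from 0 to 14 with DESeq2, 42 without day 11 and 0 to 35 with each library left out, and with the block to 30, 3 with GC correction, 6 with coding GC correction and 48 without day 11. NXN stayed lower throughout, at -1.90 to -1.67 with a library left out, where it passed the threshold in 2 of 6 fits. The pair ratios kept their sign, with ranges over the libraries left out of 0.11 to 0.36 (EIF1 to EIF1B), 0.89 to 1.27 (EIF4A1 to EIF4A2), -3.20 to -1.77 (EIF4E to EIF4E2) and 0.22 to 0.58 (EIF4G1 to EIF4G3).

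Of the 27 members named by rule, 15 kept their sign in every fit. The others reversed, and the cause was not tested beyond what the GC corrections themselves remove. With the GC correction, without and with the block, the log2 fold changes were 0.34 and 0.33 for EEF1E1, 0.031 and 0.035 for EIF1, 0.27 and 0.27 for EIF1B, 0.14 and 0.14 for EIF2B2, 0.12 and 0.10 for EIF2S1, 0.063 and 0.079 for EIF2S2, -0.080 and -0.081 for EIF4A1, 0.25 and 0.26 for EIF5B and 0.038 and 0.027 for GSPT1. With the coding GC correction, without and with the block, they were 0.12 and 0.11 for EEF1E1, 0.67 and 0.66 for EIF1, 0.68 and 0.66 for EIF1B, 0.23 and 0.23 for EIF2S1, 1.12 and 1.10 for EIF2S2, 0.018 and 0.017 for EIF5, 0.56 and 0.57 for EIF5B, 0.17 and 0.17 for ETF1 and 0.15 and 0.17 for PABPC1. With pseudocounts of 1 and 0.1, FPKM gave 0.26 and 0.26 for EIF2B2 and 0.25 and 0.25 for PABPC1. Without day 11, EIF4A1 was at -0.010, and at -0.0090 with the block. With a library left out, EIF1 ran from -0.20 to 0.0086, EIF2B2 from -0.19 to 0.055 and EIF4A1 from -0.075 to 0.17. The depth was 15349382 to 16332589 counts a library, and the precision of each value is limited by 3 libraries per group.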
